A study of Mus musculus with 384 samples.

Results

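Mouse epiblast stem cells (EpiSCs) of the line AF32, grown in activin A and Fgf2 (AF), were ranked by their level of Lefty1, and the 27 highest cells were compared with the 27 lowest. The cells were selected on the raw Lefty1 count in each cell, scaled to CPM, counts per 1000000 of the cell's total. AF32 had 96 sequenced cells, of which 80 had at least 3000000 counts, so the 54 cells compared came from 80 kept and 384 in the whole series. The remaining 26 kept cells form a middle group. AF32 is 1 line of primed pluripotent cells, and its cells are not replicates of a condition. The series also held a second EpiSC line, AFX6, kept in AF with the tankyrase inhibitor XAV939. It further held 2 formative stem (FS) cell lines, 5ar1 and 5ar2, in low activin with XAV939 and the retinoic acid receptor inverse agonist BMS493. The series asked how homogeneous these cultures are from cell to cell.

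Nodal is a TGF-beta family ligand that acts on the epiblast through activin receptors and the co-receptor Tdgf1 (Cripto), and activin A in the medium uses the same receptors without the co-receptor. Receptor activity phosphorylates Smad2 and Smad3, which enter the nucleus with Smad4 and bind DNA with partners such as Foxh1. Lefty1 and Lefty2 are direct targets of this pathway and secreted inhibitors of Nodal, so the pair forms a negative feedback loop. In the embryo Lefty1 also marks the anterior visceral endoderm and the left side of the midline.

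Lefty1 (ENSMUSG00000038793, GRCm38 chr1:180935022-180938400, plus strand) and Lefty2 (chr1:180893108-180899103) lie 35918 bases apart and arose by duplication. The pair can share reads in the counting. Of the 1520 windows of 101 bases, the length of 1 read, in the 1620-base Lefty1 message, 70 (4.61%) also occur in Lefty2. The counts used uniquely mapped reads, so reads confined to such a window would be left out of both genes, and the other windows tell the genes apart.

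Lefty1 was counted in all 80 kept cells, the lowest count being 90. Its level ran from 28.1 to 11127 CPM, a ratio of 397 between the highest and the lowest cell. The high cells held 4704 to 11127 CPM with a median of 6134, the middle cells 2233 to 4685 with a median of 3520, and the low cells 28.1 to 2125 with a median of 1020. Summed over cells, the high group had 6.75 times the Lefty1 level of the low group. This spread chose the groups and is not a finding. The limits cut through a continuous range, since the last high cell had 4704 CPM and the next cell 4685, and the last middle cell had 2233 CPM against 2125 in the first low cell. The distribution had its break lower down, where 5 cells fell under 200 CPM. In the other lines the median Lefty1 level was 330 CPM in AFX6, 0.389 in 5ar1 and 2.18 in 5ar2.

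**Figure D1:**
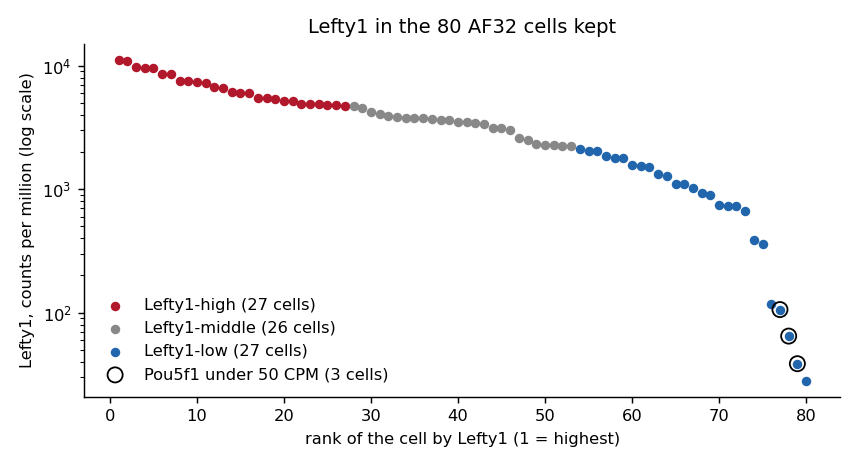
Lefty1 in CPM (log axis) for each of the 80 kept AF32 cells, in rank order, with the 27 high cells in red, the 26 middle cells in grey and the 27 low cells in blue. Levels fall without a gap at either limit, and the 3 circled cells with Pou5f1 under 50 CPM are among the 5 lowest.

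The label of primed pluripotent cells held for most but not all of the low group. The 8 EpiSC markers checked (Pou5f1, Sox2, Nanog, Fgf5, Otx2, Dnmt3b, Cdh1 and Epcam) summed to 646 to 4750 CPM, median 2253, in 77 cells with at least 50 CPM of Pou5f1. The other 3 cells, all Lefty1-low, had 25.5, 2.56 and 1.89 CPM of Pou5f1 and marker sums of 292, 12.6 and 214 CPM. They rank next after the lowest cell for Lefty1, with 38.6, 64.6 and 106 CPM. The cell with 106 CPM of Lefty1 held 2369 CPM of T (Brachyury), a transcription factor of the primitive streak and mesoderm. The fifth lowest cell, with 118 CPM of Lefty1, kept 144 CPM of Pou5f1 and held 1903 CPM of the neuronal tubulin Tubb3, 547 CPM of Pax3 and 118 CPM of Eomes. Pax3 is a neural plate and somite factor, and Eomes a T-box factor of the streak. The lowest cell of all, with 28.1 CPM of Lefty1, had 430 CPM of Pou5f1 and 271 of Nanog, with 298 of Tubb3 and 58.6 of Eomes. Total counts in these 5 cells, 3207436 to 5819714, lay within the range of the other cells. The 3 cells under 50 CPM of Pou5f1 are named the cells lacking Pou5f1 below, although 1 of them had 25.5 CPM. That cell also held 103 CPM of Sox2 and 154 CPM of Otx2, so the 3 are not 1 class of cells. Where leaving out these 3 cells ended a call or moved the fold of a named gene by over 1.5 times, the value without them is given for the main genes. In the comparison without them the remaining 77 cells were ranked again and 26 were taken at each end.

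For every gene, counts were summed over the cells of a group and scaled to CPM. Each of the 27 high cells was also set against each of the 27 low cells, and the share of pairs in which the high cell had the higher level was recorded, ties counting equally to both sides. A gene was called when it reached 20 CPM in the higher group, differed at least 2-fold in summed level and went the same way in at least 70% of pairs. A call is a description of these 54 cells and carries no p-value. Of 7772 genes that reached 20 CPM, 25 (0.322%) were called higher in Lefty1-high cells and 64 (0.823%) were called lower. The fold alone would have taken 248 and 476 genes. The median log2 fold over all genes tested was −0.04. Without the 1 cell that had at least 20 CPM of T the counts were 12 and 66, and without the 3 cells lacking Pou5f1 they were 16 and 80. In the latter comparison all 25 and all 64 genes kept their direction, and 7 and 50 of them were still called. Most of its cells are those that made the calls, so these counts are not independent of them.

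**Figure D2:**
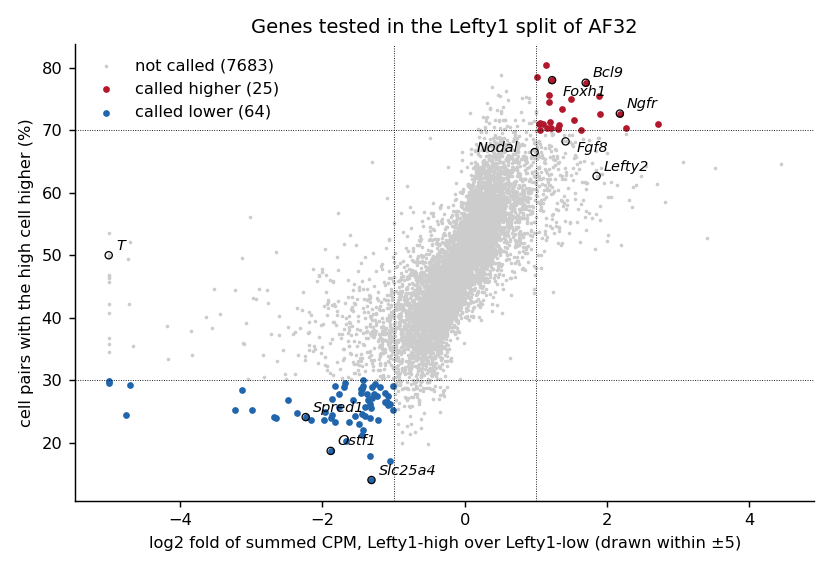
Each of the 7772 genes tested by log2 fold of summed CPM, Lefty1-high over Lefty1-low (horizontal, values beyond 5 drawn at 5), and by the percent of high-low cell pairs in which the high cell was higher (vertical). Dotted lines mark the 2-fold and the 70% and 30% limits. The 25 genes called higher are red, the 64 called lower are blue, and Nodal is among the genes not called.

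The Nodal pathway went with Lefty1 in part. Of 40 genes listed as ligands, receptors, transducers, antagonists or targets, 36 were in the table, 31 reached 5 CPM in either group and 21 were tested. The other 5 stayed under 5 CPM in both groups, and Gdf1, Inhbb, Acvr1c and Cer1 were not analysed here. Foxh1 was the single member called higher and none was called lower, so that 1 of 21 stands beside the 0.322% of all genes. Of the 21 members with a mean of at least 20 CPM over the kept cells, 13 were higher and 8 lower in Lefty1-high cells. Their median log2 fold was 0.17, against −0.03 for all 7198 genes at that level, of which 3396 were higher. At least 60% of pairs went up for 7 of the 21 tested members and at most 40% for 0, where 10.9% and 16.9% of all genes tested did so.

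Among the ligands, Nodal was the one expressed widely. In the high cells Nodal ran from 0.192 to 429 CPM, median 96.6, and in the low cells from 0 to 214 CPM, median 18.3. The groups overlapped over most of that range, but 22 of 27 high cells and 13 of 27 low cells had at least 20 CPM. The summed levels were 118 and 59.8 CPM, a fold of 1.98 (95% interval 1.92 to 2.03, counting error only) with 66.5% of pairs. Nodal thus missed both limits of a call. Without the 3 cells lacking Pou5f1 its log2 fold was 0.74, from 0.98 with them. Inhba, which encodes the subunit of activin A, was above 20 CPM in 4 high cells and 1 low cell and summed to 10.7 against 0.819 CPM. Gdf3, a related ligand, was at 7.05 and 7.35 CPM.

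The co-receptor Tdgf1 was counted in every cell. It had 410 to 2549 CPM in the high cells, median 1298, and 2.81 to 2250 in the low cells, median 1178. The groups overlapped almost fully, with 56.8% of pairs, and its log2 fold of 0.26 went to 0.02 without the cells lacking Pou5f1. The receptors that reached 5 CPM had folds in the other direction without being called. Acvr2a, a type II receptor on chromosome 2, had 7.45 CPM in high and 18.9 CPM in low cells. Its log2 fold of −1.34 was −0.12 in cells with chromosome 8 not raised (described further on). Acvr2b had 34.0 and 44.7 CPM, and the type I receptor Tgfbr1 20.9 and 27.6 CPM. The log2 fold of Acvr2b was −0.39, and −0.09 with chromosome 8 not raised. That of Tgfbr1 was −0.40, and −1.27 with none of chromosomes 2, 8 and 19 raised.

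Foxh1, the DNA-binding partner of the Smads, ran from 0.225 to 481 CPM with a median of 198 in the high cells, and from 0.257 to 242 CPM with a median of 88.2 in the low cells. Although ranges overlapped, 2 low cells exceeded the high median and 22 high cells exceeded the low median. Summed levels were 205 and 87.4 CPM, a fold of 2.34 (2.29 to 2.40), with 78.1% of pairs and 132 CPM in the middle cells. Without the 3 cells lacking Pou5f1, whose Foxh1 levels were 0.255, 0.590 and 0.515 CPM, the log2 fold was 0.99 instead of 1.23, which ends the call. Kifc2, a kinesin gene that ends 28 bases from Foxh1 on chromosome 15, was called as well, with 31.9 and 14.0 CPM. The libraries do not mark strand, so reads of the 2 neighbours cannot be told apart where transcripts run past their ends. Of the Smads themselves, Smad2 and Smad3 were close to even, with 41.3 and 36.3 CPM and 22.8 and 22.5 CPM. Smad4 had 29.6 and 22.0 CPM, medians of 15.7 and 0.265 CPM and 61.6% of pairs. Its log2 fold of 0.42 was 1.62 in cells with chromosome 8 raised and −0.34 with none of chromosomes 2, 8 and 19 raised.

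The regulators of Smad activity pointed in both directions. Ski, a corepressor that binds Smads, had 32.1 CPM in high and 12.2 CPM in low cells with 68.4% of pairs, and at least 20 CPM in 15 and 6 cells. Its log2 fold was 1.4, and −0.07 in cells with none of chromosomes 2, 8 and 19 raised. Its relative Skil, also a feedback target, had 73.4 and 88.3 CPM. Among corepressors, Tgif1 had 214 and 224 CPM and Drap1, which restrains Foxh1, 41.0 and 47.1 CPM. Trim33, a Smad4-binding ubiquitin ligase, was even at 19.9 and 19.6 CPM. The inhibitory Smad7 had 21.8 and 17.0 CPM, and Pmepa1, a target that dampens Smad signalling, 29.6 and 30.5 CPM. Of the convertases that cleave the Nodal precursor, Furin had 5.71 and 14.2 CPM, and Pcsk6 had 0 counts in the high cells and 5.80 CPM in the low ones, from 2 cells.

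Lefty2, the paralogous antagonist, was higher in 62.7% of pairs and had a rank correlation of 0.21 with Lefty1, but few cells had more than a trace. It had a count in 16 high and 9 low cells. It was at or above 20 CPM in 3 high and 3 low cells, and its highest levels were 259 and 113 CPM. The summed levels of 21.4 and 5.94 CPM thus rested on 1 cell for 44.3% and 66.1% of the counts, and the middle cells had more Lefty2, 104 CPM, than either end. Its log2 fold of 1.85 was 0.92 without the cells lacking Pou5f1 and −3.55 within cells with chromosome 8 raised. Fst, which binds activin, had 23.9 and 33.9 CPM.

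Of the remaining targets, Fgf8, a streak growth factor, was at or above 20 CPM in 14 high and 7 low cells, with 112 and 41.8 CPM summed and 68.2% of pairs. Its log2 fold of 1.42 was 0.93 without the cells lacking Pou5f1. Nanog had 423 and 377 CPM with 58.0% of pairs.

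**Figure D3:**
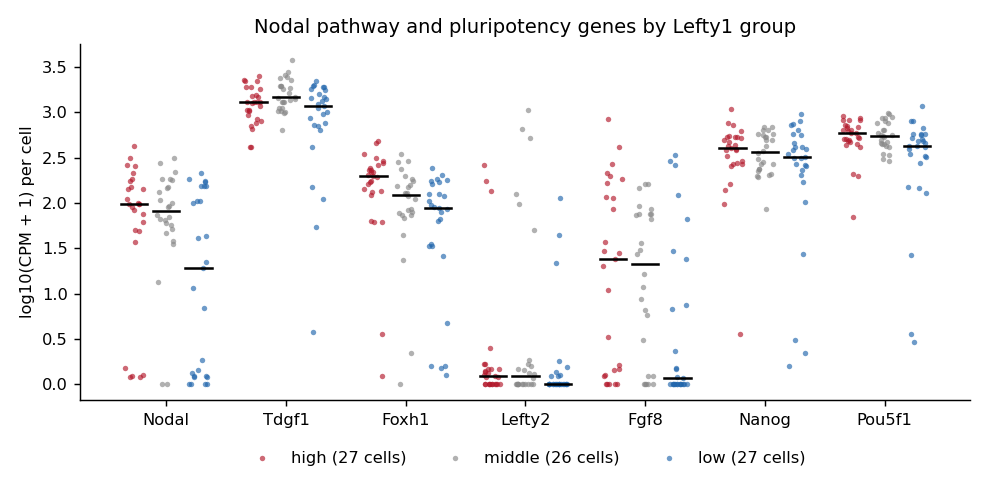
Level of 7 genes in each AF32 cell, as log10 of CPM plus 1, in the high (red, 27 cells), middle (grey, 26 cells) and low (blue, 27 cells) Lefty1 groups. Black bars are medians, which step down for Nodal and Foxh1, and also for Fgf8, Nanog and Pou5f1, while the points overlap. Lefty2 is near 0 in most cells of every group.

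The streak targets were confined to few cells. T summed to 0.0573 CPM in the high cells and 119 CPM in the low cells, but 99.2% of the low counts came from the 1 cell described above, and the pairs split evenly at 50.0%. Eomes was at or above 20 CPM in 5 low cells and 1 high cell, with 14.8 and 1.84 CPM summed and 37.8% of pairs. Its log2 fold of −3.01 was 0.71 in cells with none of chromosomes 2, 8 and 19 raised (described further on). Foxa2, an endoderm and node factor, had 8.23 CPM in high and 4.53 CPM in low cells. Lhx1, expressed in the anterior streak and its derivatives, had 6.94 CPM in the high cells, of which 3 were at or above 20 CPM, and 1 count in all in the low cells. Wnt3 had 13.8 and 22.4 CPM, and Cyp26a1, which degrades retinoic acid, 17.2 and 13.6 CPM in 7 and 4 cells with a count. The log2 fold of Wnt3 was −0.70, and 3.52 in cells with none of chromosomes 2, 8 and 19 raised. Of the 28 streak and mesendoderm genes listed, 24 were in the table, 4 were tested and 0 were called. Of all genes tested, 0.322% were called higher and 0.823% lower, so 0 of 4 says little.

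Pluripotency genes were expressed at both ends. Pou5f1 (Oct4) ran from 68.6 to 904 CPM, median 586, in the high cells and from 1.89 to 1186 CPM, median 430, in the low cells. Its summed levels of 575 and 430 CPM gave a log2 fold of 0.42 with 70.5% of pairs, and 0.22 without the 3 cells under 50 CPM of it. Sox2 had 13.4 and 15.4 CPM, and Otx2, a factor of the post-implantation epiblast, 141 and 95.2 CPM with 53.2% of pairs. Fgf5, a marker of the primed state, had 40.0 and 49.5 CPM with 48.4% of pairs. Of the 8 core, 12 naive and 13 formative or primed genes listed, 5, 0 and 10 were tested and 0 were called. No naive gene reached a mean of 20 CPM. In the neural list 3 genes were tested and 0 called. Of all genes tested, 0.322% were called higher and 0.823% lower, so 0 calls in lists this small say little about their genes. Tubb3 had 19.8 CPM in high and 140 CPM in low cells, with 59.3% of the low counts in the fifth lowest cell. Its medians were 0.489 and 61.0 CPM, 7 high and 14 low cells reached 20 CPM, and 34.0% of pairs went up. The log2 fold of Tubb3 was −2.83, and −1.89 in cells with chromosome 8 not raised (described further on). It was −1.34, with 40.3% of pairs, in cells with none of chromosomes 2, 8 and 19 raised. Nes, an intermediate filament of neural progenitors, had 66.5 and 153 CPM with 39.5% of pairs. The log2 fold of Nes was −1.20, and −0.86 with 51.0% of pairs in cells with none of chromosomes 2, 8 and 19 raised.

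Markers of other cell types were low at both ends. No listed trophoblast, fibroblast or germ cell gene reached a mean of 20 CPM. Summed over the cell, the fibroblast list had a median of 0.529 CPM in the high and 0.531 CPM in the low group, with highest cells of 144 and 113 CPM, and the germ cell and trophoblast lists had medians of 0 in both groups. In the extraembryonic endoderm list, 2 of 12 genes reached 20 CPM, led by Sparc, which the epiblast also expresses, at 635 and 648 CPM. Lefty1 is a marker of anterior visceral endoderm, and Cer1, Afp and Ttr, which also mark that tissue layer, were not analysed here.

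Signalling lists other than Nodal showed 1 call. Spred1, which restrains Ras activation of ERK, had at most 65.2 CPM in the high cells, median 0.192, and up to 228 CPM, median 30.5, in the low cells. It summed to 8.89 and 41.8 CPM, 4.70-fold lower in the high cells (4.4 to 5.03), and 4 high cells against 14 low cells reached 20 CPM. Its log2 fold was −2.23, and −0.87 in cells with chromosome 8 not raised. Of the 10 FGF and ERK genes with a mean of 20 CPM, 9 were lower in Lefty1-high cells and Fgf8 was the exception, with a median log2 fold of −0.33. Of all 7198 genes at that level 3802 were lower, and 0.823% of the genes tested were called lower. Spred1 is on chromosome 2, and Dusp4 and Fgfr1 are on chromosome 8, both of which are taken up further on. The feedback phosphatase Dusp4 had 7.08 and 43.2 CPM, with 41.4% of the low counts in 1 of the cells lacking Pou5f1, and 7.44 and 22.8 CPM without those cells. Dusp4 had 3.6 and 2.58 CPM in cells with chromosome 8 not raised, while over all cells Dusp6 had 224 and 240 CPM and Fgfr1 197 and 253 CPM. The log2 fold of Fgfr1 was −0.36, and 0.24 with 62.1% of pairs in cells with chromosome 8 not raised. Dusp4 and Fgfr1 were thus not lower in the Lefty1-high end of those cells, while Spred1 was. No gene was called among the 4 BMP, 6 Wnt and 6 immediate early and stress genes tested. None of the 11 G1/S and 12 G2/M genes tested was called either. Their median log2 folds were −0.23 and −0.16, against −0.03 for all genes with a mean of 20 CPM. As 0.322% of all genes tested were called higher and 0.823% lower, 0 calls in lists of this size say little.

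The genes called higher came from no single listed theme. Among the largest folds were BC064078, the neurotrophin receptor Ngfr, Fam118b, the focal adhesion protein Tes, the beta-catenin cofactor Bcl9, Thsd7a and the adhesion molecule Ncam1. Their log2 folds lay between 1.53 and 2.72. Without the cells lacking Pou5f1 those of Fam118b and Ncam1 were 1.28 and 0.92. Ngfr had a median of 118 CPM in the high and 0.286 CPM in the low cells, and 18 against 7 cells reached 20 CPM. Its summed levels were 186 and 41.0 CPM, a fold of 4.53 (4.39 to 4.67). Bcl9 had medians of 81.8 and 7.40 CPM and reached 20 CPM in 22 and 10 cells. BC064078 had 83.5 and 12.7 CPM, but 106 CPM in the middle cells. Its log2 fold of 2.72 was 0.90 without the cells lacking Pou5f1 and −1.05 in cells with none of chromosomes 2, 8 and 19 raised (described further on). The share of pairs was 77.6% for Bcl9 and 72.7% for Ngfr. Ddit4, an mTORC1 inhibitor that hypoxia and stress induce, was also called, with 80.5% of pairs and medians of 149 and 55.2 CPM.

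Over the 80 cells, rank correlation with Lefty1 ranged from −0.46 to 0.46 in 7198 genes, with 90% of genes between −0.23 and 0.20. The correlations are descriptions of cells that share a line. Genes near Lefty1 on chromosome 1 had uneven shares of pairs. Tmem63a starts 3943 bases away and had 124 and 74.7 CPM with 64.2% of pairs. H3f3a, 121078 bases away, had 70.1% of pairs at 1173 and 1008 CPM, and Sde2, nearer at 66908 bases, had 46.9% of pairs.

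Among the highest were Pkm, Bcl9, S100a11, Pgm1, Prelid1 and Acbd6, with correlations of 0.38 to 0.44. Pkm, the pyruvate kinase of the last step of glycolysis, had 2389 to 11494 CPM, median 7336, in the high cells and 2264 to 8400 CPM, median 4811, in the low cells, with 78.9% of pairs. The log2 fold of Pkm was 0.51, and 0.21 in cells with chromosome 8 raised (described further on). Pgm1, which feeds glucose from glycogen into glycolysis, had 448 and 239 CPM. Its log2 fold was 0.91, and at least 0.61 in every alternative. Of 20 glycolysis genes listed after these values were seen, 19 were in the table. Of these, 15 were higher in Lefty1-high cells, with a median log2 fold of 0.38 and 0 called. Of all 7198 genes with a mean of 20 CPM, 3396 were higher, with a median of −0.03. Of all genes tested, 0.322% were called higher and 0.823% lower. Summed in each cell, the glycolysis genes held 22688 to 69972 CPM, median 45622, in the high and 15798 to 61395 CPM, median 33406, in the low cells. The glucose transporters Slc2a1 and Slc2a3 had log2 folds of 0.83 and 0.57, Gapdh 0.38 and Pgk1 0.58. Pdk1 was lower at −0.41. The glycolysis list was not compared separately in cells with and without raised chromosomes.

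At the other end of the correlations stood Ostf1 (−0.46), Slc25a4 (−0.46), Sf3b3 (−0.46) and Rc3h2 (−0.46), and all 4 were called lower. Slc25a4, the mitochondrial ADP/ATP carrier Ant1, had 1.2 to 855 CPM, median 164, in the high cells and 144 to 2072 CPM, median 481, in the low cells. A low cell exceeded the high median in 26 of 27 cases. The summed levels of 218 and 541 CPM are 2.48-fold lower in the high cells (2.44 to 2.51), and the high cell was the higher one in 14.0% of pairs. Its highest level was in 1 of the cells lacking Pou5f1, and without those cells its log2 fold was −0.90 instead of −1.31, under the limit of a call. The largest negative folds, Gmip, Prss23, Car4, Gas6, Prr5l, Parp8, Ncs1 and Rac3, came from genes close to absent in Lefty1-high cells. Gas6, a ligand of the TAM receptor kinases, had 1.84 and 48.1 CPM and reached 20 CPM in 2 high and 10 low cells. Car4, a membrane carbonic anhydrase, had 5.72 and 155 CPM with 52.9% of the low counts in 1 of the 3 cells lacking Pou5f1. The log2 fold of Car4 was −3.69 without these cells instead of −4.76. Gmip had 4 counts over all high cells and 22.1 CPM in the low cells, or 9.64 CPM in the low cells without those lacking Pou5f1. The log2 fold of Rac3 was −2.69, and −1.22 without them.

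The genes called lower gathered on a few chromosomes. Of the 64, 16 lay on chromosome 2, 16 on chromosome 8 and 5 on chromosome 19. Together these chromosomes held 37 calls among 1428 genes tested, or 2.59%, against 27 among 6344, or 0.426%, on all others. The whole of these chromosomes leaned the same way, with a median log2 fold of −0.38 over their genes against 0.02 elsewhere. Slc25a4 and Sf3b3 are on chromosome 8, Spred1 and Rc3h2 on chromosome 2 and Ostf1 on chromosome 19. Of the 25 genes called higher, 3 were on these chromosomes.

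A chromosome ratio was therefore computed for each cell from 6689 protein-coding genes, taking each gene relative to its average across the 326 kept cells of all lines and limiting it to 3. It is the mean over an autosome's genes relative to the median autosome of the cell, and a ratio above 1.2 was called raised. It measures expression along a chromosome and not DNA copy number. Chromosome 8 was raised in 9 of 27 high, 11 of 26 middle and 21 of 27 low cells, with median ratios of 0.947 in the high and 1.5 in the low cells. Chromosome 2 was raised in 2 high, 10 middle and 17 low cells, and chromosome 19 in 1, 4 and 13. Chromosome 11 was raised in most cells of each group, 22, 20 and 24. Within 0.05 of the limit of 1.2 lay 4 cells for chromosome 2, 6 for chromosome 8 and 14 for chromosome 19, whose ratios formed a continuous range.

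Lefty1 stepped down with the number of chromosomes 2, 8 and 19 raised in a cell. The median was 4685 CPM in 37 cells with 0 raised (range 672 to 11127), 3378 CPM in 16 with 1 (384 to 9743), 2484 CPM in 9 with 2 (64.6 to 6134) and 1564 CPM in 18 with 3 (28.1 to 5997). Ranges overlapped widely at each step. None of the 3 chromosomes was raised in 18 of 27 high cells (66.7%, exact binomial 95% interval 46.0 to 83.5%), 14 of 26 middle cells and 5 of 27 low cells (18.5%, 6.30 to 38.1%). The intervals treat cells as independent draws, which cells of 1 line are not, so they are no test between the groups. The 5 lowest cells had 2 or 3 of the chromosomes raised. Which of the gene differences go with Lefty1 and which with these chromosomes cannot be told apart across the whole set.

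**Figure D4:**
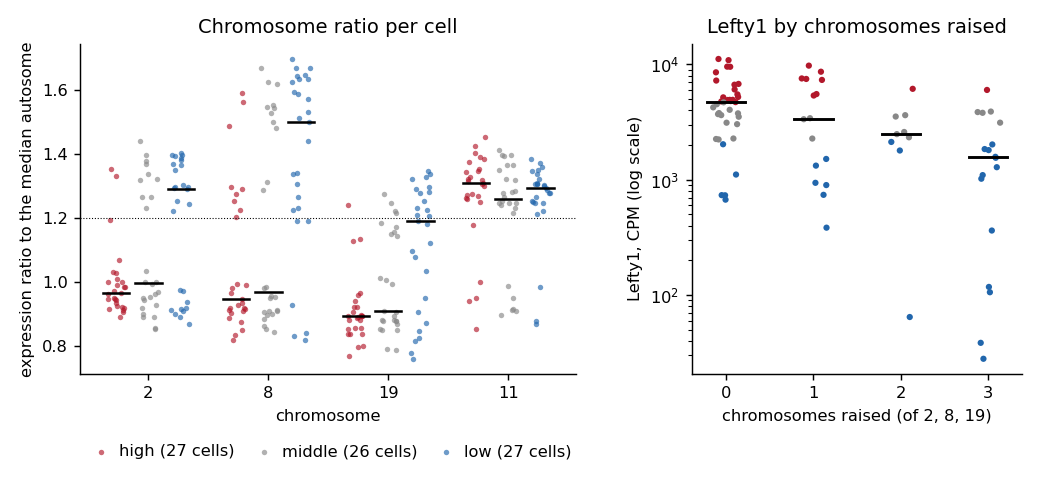
Left, expression ratio of chromosomes 2, 8, 19 and 11 to the median autosome in each high (red), middle (grey) and low (blue) cell, with medians as bars and a dotted line at 1.2. Right, Lefty1 in CPM (log axis) by the number of chromosomes 2, 8 and 19 above 1.2, where the median falls from 4685 to 1564 CPM.

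Within the 37 cells with none raised, the 12 highest and 12 lowest for Lefty1 were set against each other, a comparison chosen after seeing these ratios. Lefty1 itself then differed 3.74-fold, less than the 6.75-fold of all cells. Of the 25 genes called higher, 23 kept their direction with a median log2 fold of 0.92, where 49.6% of all genes tested were higher. Of the 64 called lower, 58 kept their direction with a median of −1.07, where 50.4% were lower. These shares include the same cells that made the calls, so they are not independent. Nodal kept a log2 fold of 0.59, Bcl9 1.89 and Slc25a4 −0.65, while Foxh1 had 0.27, Tdgf1 −0.43 and Pou5f1 −0.16. Within the 41 cells with chromosome 8 raised, the log2 folds were 1.11 for Nodal, 0.76 for Tdgf1 and 0.90 for Foxh1. Within the 39 cells with it not raised they were 0.66, −0.59 and 0.40. The difference between these folds was not tested.

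Y-linked genes moved alongside. Ddx3y, an RNA helicase gene on the Y chromosome, was called lower, with 33.0 CPM in high and 105 CPM in low cells and 20.3% of pairs. Summed with Eif2s3y and Uty, chosen after Ddx3y was seen, the Y-linked level had a median of 169 CPM in the high, 188 CPM in the middle and 345 CPM in the low cells. The sum was under 20 CPM in 2, 1 and 1 cells. It had a median of 173 CPM in cells with none of chromosomes 2, 8 and 19 raised and 354 CPM in cells with all 3 raised.

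Depth and detection differed little between the ends. Total counts had medians of 4441410 in the high and 4088180 in the low cells, and 10166 and 10396 genes were detected. The 50 most abundant genes took 16.3 to 31.0% of counts in the high cells, median 18.9%, and 13.8 to 23.9%, median 16.8%, in the low cells. The rank correlation of Lefty1 with total counts was 0.16 and with detected genes −0.13. No 2 kept cells had identical counts. Ranking by the authors' normalized values picked the same 27 and 27 cells.

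The same split was applied to the other lines, taking the same share of cells at each end. These cells had no part in choosing the genes. In AFX6 it set 22 cells with 1597 CPM of Lefty1 against 22 with 49.5 CPM. Of the genes called higher in AF32, 21 could be tested in AFX6 and 12 were higher, where 51.1% of all genes were. Of those called lower, 24 of 49 were lower, where 48.9% of all genes were. In 5ar1, where Lefty1 was at 14.5 and 0.0912 CPM, the counts were 9 of 19 higher (47.2% of all genes) and 31 of 49 lower (52.8%). In 5ar2, with Lefty1 at 29.5 and 1.25 CPM, they were 9 of 17 (48.9%) and 22 of 50 (51.1%). Kif5c in AFX6 and Nhlrc2 in 5ar2 met the call there as well, where 0.738% and 0.0714% of all genes were called lower.

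In the other lines Nodal was higher in the Lefty1-high cells by both measures. Nodal had 62.8% of pairs in AFX6 (59.2 and 45.5 CPM), 61.3% in 5ar1 (8.05 and 1.90 CPM) and 72.9% in 5ar2 (12.1 and 1.2 CPM). In 5ar1 and 5ar2 Lefty1 itself was low, with 74 of 90 and 90 of 90 cells having a count, and the part of counting error in their ranks was not tested. Tdgf1 had 68.4% of pairs in AFX6 at 1039 and 654 CPM, but 39.1% in 5ar1 and 49.9% in 5ar2. Foxh1 had 43.0, 50.0 and 49.2% of pairs in AFX6, 5ar1 and 5ar2, and Slc25a4 48.1, 49.0 and 48.2%. Pkm had 49.0, 50.3 and 47.1%, and of the glycolysis genes at 20 CPM 4 of 19, 8 of 19 and 5 of 18 were higher.

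**Figure D5:**
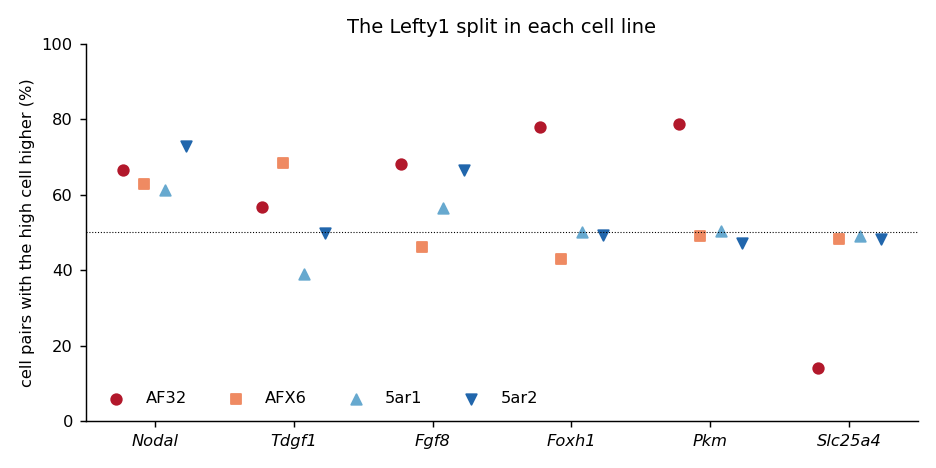
Percent of high-low cell pairs in which the Lefty1-high cell had the higher level, for 6 genes in each of the 4 lines. The dotted line is 50%. Nodal lies above it in all 4 lines, whereas Pkm has 78.9% and Slc25a4 14.0% in AF32 and both lie between 47.1 and 50.3% in the other lines.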

How the data were processed

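Single cells were collected in 96-well plates and sequenced by Smart-seq2 with paired reads of 101 bases. Per the submitters' processing notes and the study's methods, the authors aligned the reads with STAR 2.7.3a to GRCm38.p6 and deposited raw counts of uniquely mapped reads per gene (featureCounts 2.0.0). The kit has no molecular identifiers and does not mark strand. The authors also deposited values normalized with sctransform, whole-number scores used here only to repeat the ranking. The cells are 1 line, so no p-value was computed.

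Counts were scaled to CPM (per 1000000 counts of the cell), and 16 of the 96 AF32 cells fell under 3000000 counts. The rank used the raw Lefty1 CPM. The members and gene lists were chosen with earlier results of these data known. Named genes were every Nodal pathway gene with at least 5 CPM in either group, called members of the other lists, a few fixed lineage genes, the 8 largest folds each way, and the 8 highest and 4 lowest rank correlations. Other genes named (neighbours of Lefty1 and Foxh1, Ddit4, glycolysis, hypoxia and Y-linked genes, Sparc, Tubb3, Nes, Pax3, Dusp4, Dusp6 and Fgfr1) were chosen after their values were seen. Some genes that the rule names are not reported here. Gene positions were taken from GENCODE for GRCm38, which held 31565 of the 31617 genes. The calculation was tested on simulated data. Tools were Python 3.11.15, pandas 2.3.3, numpy 2.4.6 and scipy 1.17.1. Fold intervals are exact conditional ones at 95%, those of levels exact Poisson ones, and both cover counting error only. Alternatives changed the number of cells, scaling, depth, thresholds, the cells kept and the genes counted.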

Additional observations from a re-analysis of the deposited data

How the results depend on the processing

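No paired analysis was possible because the result comes from no test and cells of 1 line share no numbers across groups. The counts of genes called higher and lower, 25 and 64, became 44 and 141 with 20 cells at each end, 1 and 13 with 40, 88 and 122 at a higher depth minimum of 4000000, 41 and 123 at 1.5-fold and 248 and 476 without the share of pairs. They were 125 and 255 in cells with chromosome 8 raised (14 at each end), 171 and 248 with it not raised (13) and 221 and 310 with none of chromosomes 2, 8 and 19 raised (12). Of these calls, 5 and 25, 9 and 17, and 6 and 16 were among the 25 and 64. Counts tended to rise as fewer cells were taken at each end, so counts from unlike numbers of cells are not comparable. The lower calls were 35 at a minimum of 50 CPM and 25 on chromosomes other than 2, 8, 11 and 19. The higher calls were 12 without the cell with at least 20 CPM of T and 16 without cells under 50 CPM of Pou5f1. Nodal genes called higher, 1, were 2 with 20 cells and at 1.5-fold, 3 with chromosome 8 raised, 4 (and 1 lower) without the share of pairs, and 0 with 40 cells, with chromosome 8 not raised, with none raised and without cells under 50 CPM of Pou5f1. BC064078 reversed to −1.09 with chromosome 8 not raised and −1.05 with none raised, and Thsd7a to −0.017 with chromosome 8 not raised. The cause was not tested. Nodal and Foxh1 kept their direction in all 19 alternatives. Those that changed only thresholds or the genes counted, or ranked by normalized values, could not alter a fold. The others share cells with the main comparison, so the 19 are not independent. The comparisons within raised or unraised cells, on the other chromosomes and without cells under 50 CPM of Pou5f1 were chosen after results were known.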

Other observations

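The 16 AF32 cells under 3000000 counts entered no group. They held 23743 to 2829100 counts. In the 13 of them with at least 500000 counts, Lefty1 ran from 9.75 to 6541 CPM with a median of 2301. Over these 13 cells the rank correlation with Lefty1 was above 0 for 20 of the 25 genes called higher and below 0 for 21 of the 64 called lower. For all genes tested, 70.8% were above 0 and 28.4% below. Pkm had 0.77, Foxh1 0.24, and Nodal 0.08, as descriptions of cells of unequal depth. Slc25a4 had 0.18 and Ostf1 0.0056, where the deeper cells had −0.46 for both.

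Among 12 genes of the hypoxia response, listed after values were seen, 9 reached a mean of 20 CPM and 7 of these were higher in Lefty1-high cells, with a median log2 fold of 0.19. Of all 7198 genes at that level 3396 were higher. Ddit4 was the member called, where 0.322% of all genes tested were. Ndrg1, a stress-responsive gene, had 170 and 70.9 CPM with 67.1% of pairs, and Bnip3, a mitophagy receptor, 394 and 445 CPM.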
